A study of Mus musculus with 2 samples.

Results

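Red cells are built around a membrane held to a spectrin skeleton, and a small set of transcripts marks the cells that make it. The erythroid set described here holds 8 such genes: the transcription regulators Klf1 and Hemgn, the haemoglobin-stabilising chaperone gene Ahsp, the anion exchanger gene Slc4a1 (band 3) with its anchor Epb42 (protein 4.2), the Rh complex genes Rhag and Rhd, and Ermap, an erythroid membrane protein of the immunoglobulin superfamily. They were measured in sorted splenic red pulp macrophages, the resident phagocytes that take up aged red cells, on 1 array for wild-type (WT) mice and 1 array labelled SIRPα-KO, called the KO-labelled array below. Each array carried RNA of 1 pool of cells from 5 mice, so no test across animals was possible. The labels give the cells as F4/80-positive and CD11b-low after collagenase digestion and lysis of red cells, and the RNA of both groups as depleted of α- and β-globin transcripts. The sources used here give neither strain nor age nor the kind of Sirpa deletion.

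The genes were chosen by name, and their probes are all spots whose RefSeq accession belongs to one of them. Of the 8 genes, 7 were matched to a probe, with 9 probes in all among 39386 on the arrays; for Ahsp the tables used here gave no accession, so it was not analysed here. Each of the 9 probes had a single unflagged spot on each array, and Ermap alone had more than 1 probe. Of the 7 genes, 4 had a probe well above background on at least 1 array (Klf1, Slc4a1, Hemgn and Ermap), and 3 did not on either (Epb42, Rhag and Rhd). Across all named genes, 15827 of 20642 were measured in this sense.

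Red cells mature from nucleated erythroblasts that lose their nucleus, and a mature red cell makes no new transcripts. KLF1, a zinc-finger factor that binds CACCC boxes, and GATA1, which binds GATA motifs, act together at the genes of the red cell membrane and of heme and globin synthesis. In the spleen of the mouse, erythroblasts mature in the red pulp next to macrophages, which also engulf aged red cells.

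The stretches before the start site of 3 measured genes and of 1 gene not well above background are shown because they hold the same element regardless of that difference. Each shows the 250 bases before the start of the gene, 5′ to 3′ on the strand of the gene, from RefSeq on assembly GRCm38.p6. Capitals mark matches on either strand to a GATA motif, spelled AGATAA and in its second accepted form with T in first place TGATAA, and to a CACCC-type motif, spelled CCNCNCCC. The stretches shown lie at chr8:84901732-84901981 on the plus strand, chr4:46404184-46404433 on the minus strand, chr4:119189996-119190245 on the minus strand and chr17:40810899-40811148 on the plus strand.
Klf1: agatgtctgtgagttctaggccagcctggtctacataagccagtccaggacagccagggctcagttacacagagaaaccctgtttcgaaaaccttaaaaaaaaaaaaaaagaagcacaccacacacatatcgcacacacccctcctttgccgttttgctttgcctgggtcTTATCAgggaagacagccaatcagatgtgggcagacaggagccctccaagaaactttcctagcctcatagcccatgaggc
Hemgn: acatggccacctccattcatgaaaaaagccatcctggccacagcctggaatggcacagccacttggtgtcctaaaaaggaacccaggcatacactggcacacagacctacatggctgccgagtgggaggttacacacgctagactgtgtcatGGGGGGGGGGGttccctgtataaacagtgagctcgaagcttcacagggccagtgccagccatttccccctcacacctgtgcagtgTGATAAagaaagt
Ermap: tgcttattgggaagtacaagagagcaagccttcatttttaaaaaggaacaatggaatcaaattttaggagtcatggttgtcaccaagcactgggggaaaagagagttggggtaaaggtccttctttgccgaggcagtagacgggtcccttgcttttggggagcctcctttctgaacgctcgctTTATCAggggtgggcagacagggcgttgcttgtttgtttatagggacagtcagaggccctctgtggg
Rhag: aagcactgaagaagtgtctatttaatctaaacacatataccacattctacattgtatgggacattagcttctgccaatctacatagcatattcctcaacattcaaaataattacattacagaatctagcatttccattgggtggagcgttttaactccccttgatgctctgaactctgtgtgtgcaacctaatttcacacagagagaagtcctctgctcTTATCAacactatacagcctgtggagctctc

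Motifs were counted in windows that also take in the 50 bases after the start. Of the 8 genes, 6 had such a window, and all 6 held a GATA motif in one of both forms (Klf1, Epb42, Hemgn, Rhag, Rhd and Ermap), against 18.6% of 32851 windows of the same length over all genes. In Klf1, Ermap and Rhag the match was the second form read on the opposite strand, beginning 80, 67 and 31 bases before the start. Hemgn held both forms on its own strand, the second beginning 13 bases before the start and the first 28 bases after it, beyond the stretch shown. The CACCC-type motif matched in 2 of 6 windows, Hemgn and Rhd, against 49.5% of all windows. In Hemgn its 4 overlapping matches lay in a single run of G. No motif match overlapped a match of the other kind. A match describes these letters only, and the genes on both sides of the detection limit held one.

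Before the values, the labels were checked. Sirpa, the targeted gene, read 795 in WT and 1006 on the KO-labelled array, a difference of 0.51 ± 0.20 on the log2 scale, so it went against that label. Its probe checks the label only if it lies in the deleted part, which the sources used here do not say, and directions below rest on the labels alone. Of 17 red pulp macrophage genes, 15 were measured, with signals from 10.1 to 6830 in WT and from 5.98 to 10406 on the KO-labelled array. Adgre1, which encodes F4/80, and Csf1r were the brightest, and the transcription factor gene Spic read 53.6 on both arrays. C1qa read 16.0 in WT and 7.92 on the KO-labelled array, where it was not well above background. The other C1q subunit genes were brighter, C1qb at 219 and 154 and C1qc at 174 and 334. Mertk and Itgad were not well above background on either array. Probe names limit what every level below can mean. Over 4551 genes with exactly 2 probes, the levels of the pair correlated with r = 0.14 across genes on each array, and with r = -0.01 in WT and -0.06 on the KO-labelled array over the 252 genes with 1 probe named A_51 and 1 named A_52. Where all readings of a pair were well above background (1949 genes), the differences between the arrays correlated with r = 0.11. Ribosomal protein genes, which nearly all cells transcribe strongly, had a median signal of 717 in WT at 142 probes named A_55, against 11.5 at 948 such probes of olfactory and vomeronasal receptor genes, which macrophages are not known for. Among probes named A_51, A_52 or A_66 the same families had 28.6 (17 probes) and 26.6 (501 probes). Both families were picked after values were seen. Klf1, Slc4a1, Epb42, Rhag and Rhd were read at A_51 or A_52 probes, and Hemgn and the brightest Ermap probe at A_55 probes. Whether the accession listed for a spot names the transcript bound there was not tested, so each value is that of a probe under the gene name listed for it. The arrays themselves correlated with r = 0.971 over 25244 probes well above background on both. Genes are not independent replicates, and these correlations are given as descriptions.

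The regulators Hemgn and Klf1 lay at different places in the range of signals. Hemgn, a nuclear protein of blood progenitors and erythroblasts, read 10925 in WT and 7606 on the KO-labelled array. These stood at rank 572 and rank 620 of 39386 probes, which puts 98.5% and 98.4% of probes below Hemgn. Klf1, the erythroid master regulator, read 41.5 in WT and 30.3 on the KO-labelled array, with 60.2% and 56.2% of probes below it. Both regulators were therefore brighter on the WT array. After each array was scaled to its 75th percentile of signal (100.2 and 89.1), Hemgn differed by -0.35 ± 0.20 and Klf1 by -0.29 ± 0.23 on the log2 scale, SIRPα-KO minus WT. The error after ± is the scanner software's signal error of both arrays, which covers the spot and not the animals. The Klf1 difference is close to its error, and that of Hemgn is less than 2 times its error. In signal without scaling, the KO-labelled array had 0.696 of the WT value for Hemgn and 0.730 for Klf1.

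The probes of the membrane genes split into bright ones and ones not well above background. Slc4a1, the chloride-bicarbonate exchanger that anchors the red cell skeleton, read 789 in WT and 591 on the KO-labelled array, with 91.3% and 91.2% of probes below it. Its scaled difference was -0.25 ± 0.20, again close to the error. The brightest probe of Ermap read 19111 in WT and 12763 on the KO-labelled array, rank 342 and rank 395, with 99.1% and 99.0% of probes below it. Its scaled difference was -0.41 ± 0.20, the lowest of the 4 measured genes. Of the 4, Ermap alone differed by at least 2 times its error, at this 1 probe and with this scaling.

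The 3 probes of Ermap fell on both sides of the detection limit. All carry the same accession in the array files. Beside the bright probe A_55_P2153381, the probe A_51_P391716 read 8.24 on the WT array, where it was well above background, and 6.67 on the other, where it was not, and no fold is given for it. The third, A_55_P2153382, read 2.27 and 2.21 and was not well above background on either array. Hemgn, Slc4a1 and Klf1 had no second probe among those matched here, so their levels have no such check.

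The probes of the remaining membrane genes were at background. Epb42, which ties band 3 to ankyrin, read 2.67 in WT and 3.83 on the KO-labelled array. Rhag, the Rh-associated glycoprotein needed to carry Rh proteins to the membrane, read 5.90 and 5.27, and Rhd, the Rh blood group antigen gene, 1.78 and 1.97. The lowest signal well above background was 7.92 in WT and 9.09 on the KO-labelled array, above all of these. The probes listed for Epb42, Rhag and Rhd were not well above background on either array, so no difference is given for them. Whether their transcripts were present was not tested. The probes of Slc4a1 and Epb42, whose proteins bind each other, thus lay on opposite sides of the detection limit.

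**Figure D1:**
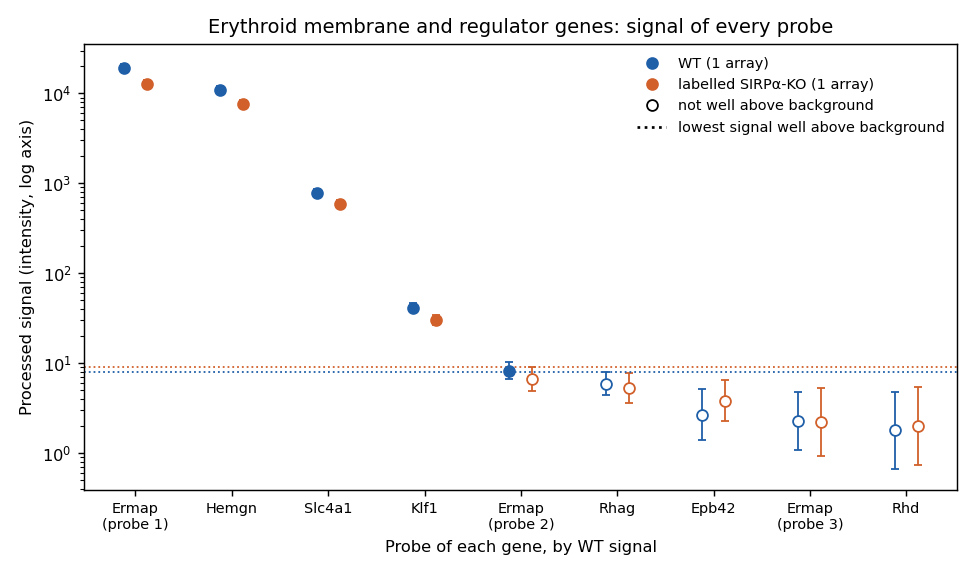
Processed signal (intensity, log axis) of each of the 9 probes of the 7 matched genes in WT and on the KO-labelled array, with 1 array each; bars are the software's signal error, open points are not well above background, and dotted lines mark the lowest signal well above background on each array. The Ermap, Hemgn, Slc4a1 and Klf1 probes at the left lie above the lines on both arrays, and WT is higher in each; the Rhag, Epb42 and Rhd probes and a further Ermap probe lie below them.

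Set beside all genes, the 4 measured genes differed little. Of the 4, 0 passed the 2-fold limit upward, against 3.11% of 15827 measured genes, and 0 passed it downward, against 5.42%. All 4 differences lay below 0, as did 56.9% of measured genes, whose median was -0.08. Ermap, Hemgn, Klf1 and Slc4a1 had 22.2%, 26.6%, 32.3% and 35.5% of measured genes below them in difference. Genes brighter on the WT array had lower medians. Those with a WT signal of 5000 to 40000, the range of Hemgn and Ermap, had a median difference of -0.39 (617 genes). Those of 300 to 1500, the range of Slc4a1, had -0.27 (1991 genes), and those of 20 to 80, the range of Klf1, had -0.05 (5389 genes). The ranges were set on WT signal alone, which by itself favours lower differences at high signal. Ranges set on the mean of both arrays were not run. Hemgn, Ermap and Slc4a1 were thus within 0.04 of the median of genes in their range, and Klf1 was within its quartiles, -0.31 and 0.27.

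The spread between spots gives a second scale for these differences. Among probes spotted at least 8 times with a signal of 20 to 80, the median SD of the spots was 0.15 on each array (103 and 95 probes), which makes 0.21 for a difference between arrays. For a signal of 300 to 1500 the SDs were 0.11 and 0.08 (22 probes on each array), which makes 0.14. For 5000 to 40000 only 5 and 2 such probes were present, with 0.11 on each array and 0.16 for a difference. With 75th percentile scaling Hemgn, Ermap, Slc4a1 and Klf1 differed by more than the value of their range. With quantile normalization Slc4a1 (-0.01) and Hemgn (-0.13) did not, nor did they with cyclic loess (-0.11 and -0.13). Ermap (-0.18 with each) and Klf1 (-0.30 and -0.29) still did. With normexp background correction on median signals neither Klf1 (-0.16) nor Ermap (0.07) did. Spots of 1 sample show technical spread alone, and the spread between animals or pools was not measured.

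**Figure D2:**
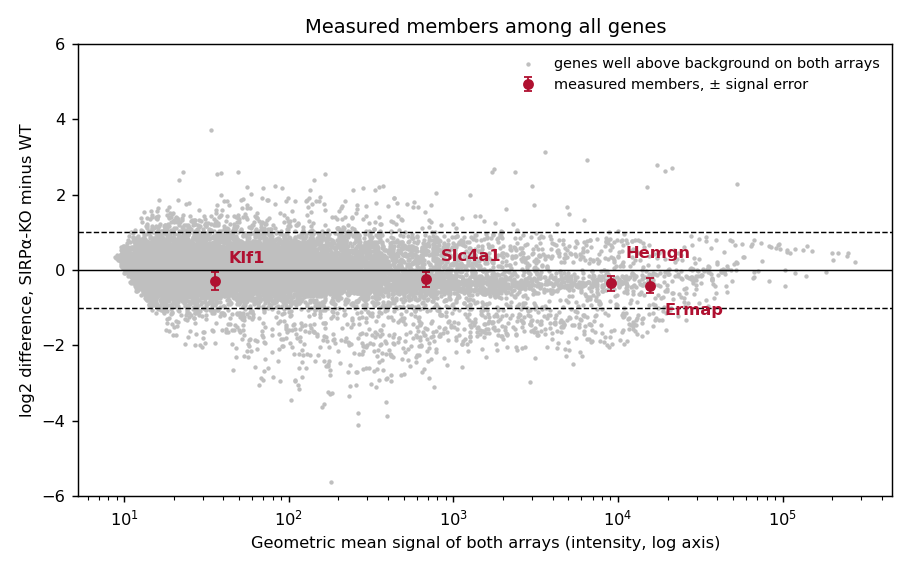
The log2 difference (SIRPα-KO minus WT, by label) of each gene well above background on both arrays (grey) against the geometric mean of its signals (log axis), with the 4 measured erythroid genes in red and their signal error as bars. Dashed lines mark a 2-fold difference; all 4 genes lie between 0 and -1, inside the cloud of all genes.

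How far the 4 genes lay from 0 differed with the scaling. With quantile normalization Slc4a1 was at -0.01, Hemgn at -0.13, Ermap at -0.18 and Klf1 at -0.30, and the authors' deposited log2 values gave -0.01, -0.13, -0.17 and -0.29. With normexp background correction on median signals Ermap turned to 0.07, while Klf1 was at -0.16, Hemgn at -0.10 and Slc4a1 at -0.03. Without scaling all 4 lay further from 0, Klf1 at -0.45, Slc4a1 at -0.42, Hemgn at -0.52 and Ermap at -0.58, and the median of all genes was then -0.25. The order also changed: Ermap was the lowest of the 4 with 75th percentile scaling, and Klf1 after quantile normalization.

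**Figure D3:**
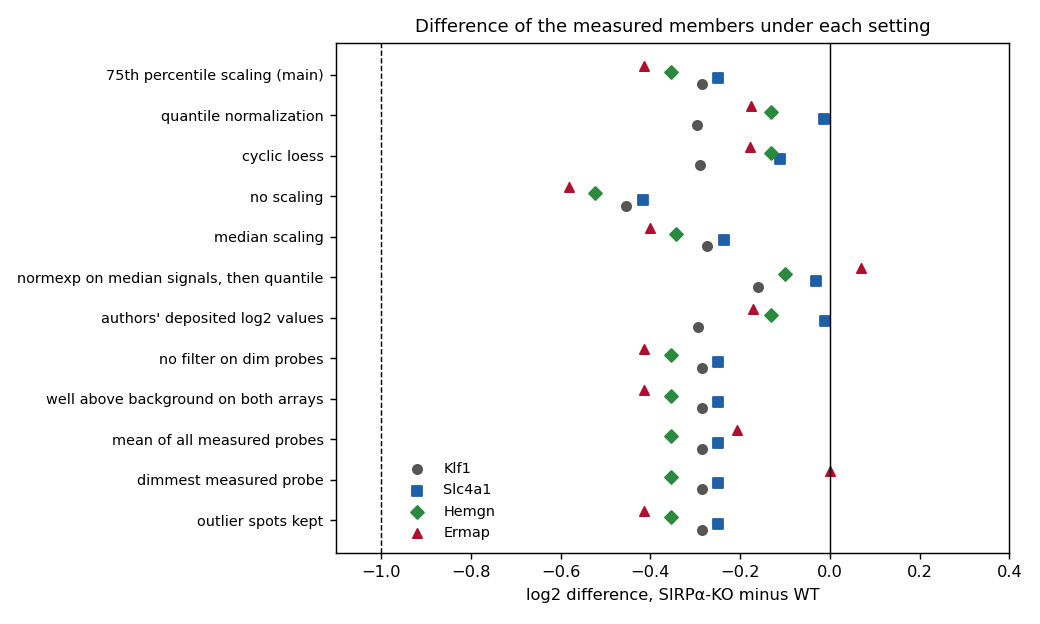
The log2 difference (SIRPα-KO minus WT, by label) of Klf1, Slc4a1, Hemgn and Ermap under 75th percentile scaling and 11 other settings. Slc4a1, Hemgn and Ermap move towards 0 with quantile normalization, cyclic loess, normexp and the authors' values, Klf1 does so with normexp and not with the other 3, all 4 move away from 0 without scaling, Ermap passes 0 with normexp, and no point reaches the dashed line of a 2-fold difference.

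Other red cell genes were examined as 5 lists of 70 genes in all, of which 69 had a probe and 58 were measured. Of the 58, 3 passed the 2-fold limit upward and 2 downward, and 55.2% lay below 0, with a median of -0.05. Among 12 measured genes of the membrane and its skeleton, 3 passed the 2-fold limit upward and 1 downward, and 6 of the 12 lay below 0 (median -0.02), against 3.11%, 5.42% and 56.9% of all measured genes. With both arrays required above background 1 passed upward, and after normexp 0 did. Epb41, which encodes protein 4.1 that joins spectrin to actin, read 95.9 in WT and 203 on the KO-labelled array (1.25 ± 0.21); its other 2 probes were not well above background. Ank1 (ankyrin, the link from band 3 to spectrin) read 5.47 and 17.8, and Icam4 (the red cell adhesion molecule) 8.43 and 15.7. Both were well above background on the KO-labelled array alone and entered the list through it, with bounds of 1.34 ± 0.53 and 1.06 ± 0.43 on the log2 scale. A brighter gene of this list differed less: Tspo2, an erythroid membrane translocator protein, read 1340 and 984 (-0.28 ± 0.20). Dmtn, Tmod1, Kel and Aqp1 were not well above background on either array.

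None of 11 measured erythroid transcription regulators was at least 2-fold apart, and the list median was 0.02. Gata1, the partner of Klf1, read 12.2 in WT and 12.4 on the KO-labelled array (0.19 ± 0.37), not far above the lowest signal well above background. Cbfa2t3, a corepressor of the Tal1 complex, was lowest in this list at -0.95 ± 0.21, and E2f4, a cell cycle factor, highest at 0.51 ± 0.42. Further Cbfa2t3 probes gave -0.36 and, as a bound, -0.37. Nfe2, Sox6 and Myb were not well above background. Most genes of this list are also used by other blood cells.

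Globin genes were the list with the lowest median, -0.65 over 8 measured genes. All 8 lay below 0, against 56.9% of all measured genes. They also stayed below 0 under each of the 11 other settings, where the list median ranged from -0.82 to -0.32. Hba-a2 (α-globin) read 23729 in WT and 11251 on the KO-labelled array (-0.91 ± 0.20). This was within the quartiles, -1.02 and -0.11, of genes with a WT signal of 5000 to 40000. The probe named for its near-identical copy Hba-a1 read 120 and 85.8 (-0.31 ± 0.21), and these 2 genes cannot be told apart with certainty. Hba-x, an embryonic globin gene, was 5.09-fold lower, from 171 to 29.9 (-2.35 ± 0.23). It was the one globin at least 2-fold lower, against 5.42% of all measured genes, and none was at least 2-fold higher. Hbb-bh1 was the highest at -0.04 ± 0.21. The adult β-globin probes named Hbb-bs and Hbb-b2 were not well above background on either array, and Hbb-bt read 144 and 81.2 (-0.66 ± 0.21). Because globin transcripts were removed before labelling, a difference in removal and a difference in the cells cannot be told apart for these genes.

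Of 11 measured genes of heme synthesis and its transporters none was at least 2-fold apart, with a median of 0.07, and Uros, an enzyme of the pathway, was highest at 0.68 ± 0.27. Alas2, the erythroid form of the first enzyme, read 8.79 in WT and 2.71 on the KO-labelled array, where it was not well above background, and no fold is given. Of 16 measured genes of late red cell maturation none was at least 2-fold apart at its brightest probe (median -0.06). Bnip3l, which encodes a protein that clears mitochondria from maturing red cells, differed by 0.42 ± 0.21 there and by 0.41 ± 0.21 at a second probe, but another probe read 96.1 in WT and 316 on the KO-labelled array (1.88 ± 0.21). In this list Nxpe2 was lowest at -0.87 ± 0.21 and Tfrc, the transferrin receptor that brings iron to erythroblasts, highest at 0.76 ± 0.32 by this rule; its other 2 probes were not well above background. Isg20 was the brightest gene of the list, at 7836 and 5596 (-0.32 ± 0.20), and is also induced by interferon. A second Isg20 probe read 165 in WT and 89.0 on the KO-labelled array (-0.72 ± 0.21).

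**Figure D4:**
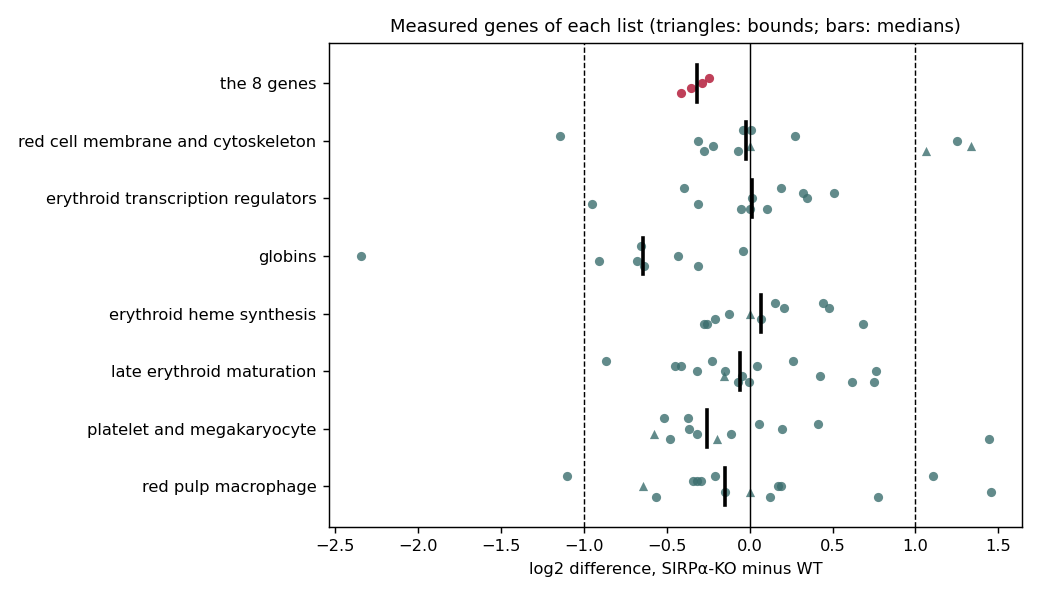
The log2 difference (SIRPα-KO minus WT, by label) of each measured gene in the erythroid set (red), in 5 further red cell lists and in the platelet and macrophage lists; triangles are bounds, black bars list medians and dashed lines a 2-fold difference. The globin list has all 8 genes below 0 and a median of -0.65, and the medians of the other red cell lists lie between -0.06 and 0.07.

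Markers of other cells that share erythroid regulators or could be carried in the sort were read the same way. Of 12 measured platelet and megakaryocyte genes, 8 (66.7%) lay below 0, against 56.9% of all measured genes. The medians were -0.26 and -0.08. Gp1ba alone passed the 2-fold limit upward, against 3.11% of all measured genes, and was 2.72-fold higher, from 24.6 to 59.5. In this list 0 genes passed it downward, against 5.42%. Pf4 was the brightest of them at 12236 and 12447. The summed signal of this list, in units of each array's 75th percentile, was 150 in WT and 162 on the KO-labelled array, of which Pf4 alone made 81.4% and 86.2%. For the red pulp macrophage genes it was 157 and 212, with 43.4% and 55.1% from 1 Adgre1 probe that differed by 0.78 ± 0.20, while a second Adgre1 probe differed by -0.47 ± 0.20. Sums carried by 1 probe do not measure amounts of a cell type. Of 6 measured mast cell, basophil and eosinophil genes none was at least 2-fold apart, and Kit, Ms4a2, Prg2 and Epx were not well above background. The part of other cells in the erythroid values was not tested. A change in the number of erythroid cells and a change in their RNA per cell cannot be told apart in such bulk RNA, and neither was tested.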

How the data were processed

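Sorted macrophage RNA was hybridised to 1-colour (cy3) arrays, 1 per genotype. The deposited scanner tables hold spot intensity on a linear scale, made by the authors with Agilent Feature Extraction 11.0.1.1 (mouse design 26655, mm9), per the file headers. The authors' log2 values, deposited in a further table with no statement of their normalization in the sources used here, served as an alternative.

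From the intensities, control spots and outlier spots (190 and 167 of 43020) were left out, spots of a probe were averaged, and log2 signal was centred on each array's 75th percentile. Probes were named through unversioned RefSeq accessions of GRCm38.p6 (27206 of 39386 probes; names only). A gene was read at its brightest probe and measured if either array had that probe well above background. A dim side was set to the higher of its value and the lowest signal well above background, so the difference is a bound; a bound of opposite sign was set to 0. The number of arrays (2) limits all precision, and a 2-fold rule replaced tests. Genes named are the 8 genes; in each red cell list those at least 2-fold apart, up to 3 each way, with the lowest and highest difference; and Sirpa and macrophage genes. Further genes named for their brightness or role (Tspo2, Bnip3l, Gata1, Hba-a2, Hba-a1, Hbb-bt, Alas2, Isg20, Pf4, C1qa, C1qb, C1qc and genes at background) were chosen after their values were seen. Some genes the rule names are not reported here. All genes and lists were chosen with earlier results of these data known. Alternatives used limma 3.58.1 in R 4.3.3. The reading of a gene at its brightest probe was tested on simulated data, with planted differences past the 2-fold limit. The scaling, the bounds and differences as small as those of the erythroid set were not part of that test.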

Additional observations from a re-analysis of the deposited data

How the results depend on the processing

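No paired analysis was possible because each group has a single array. Of the 4 measured erythroid genes, 0 passed the 2-fold limit either way in any setting run, the 1.5-fold limit included, and Klf1 moved by less than its signal error in all 11. With quantile normalization Slc4a1 was at -0.013, Hemgn at -0.13 and Ermap at -0.18. Cyclic loess gave -0.13 for Hemgn and -0.18 for Ermap, and the authors' values gave -0.012 for Slc4a1, -0.13 for Hemgn and -0.17 for Ermap. Normexp on median signals with an offset of 50, then quantile normalization, gave -0.030, -0.10 and 0.069; it was chosen after seeing the data because no mean signal was at hand, so the planned settings on it were not run. Ermap was at -0.21 with the mean of its measured probes and at 0, as a bound, at its dimmest measured probe. The cause of the shifts under other scaling was not tested.

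Ranked only among probes well above background, Klf1 had 44.3% of probes below it in WT and 33.0% on the KO-labelled array, Slc4a1 87.8% and 86.5%, Hemgn 98.0% and 97.6%, and Ermap 98.8% and 98.5%, lower by construction. By median signal, chosen after seeing the data, the WT values were 91.8% for Slc4a1 and 98.9% for Ermap.

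Over all genes, 492 passed the 2-fold limit upward and 858 downward. Omitting the scaling left 303 upward. Normexp left 183 upward and 462 downward. Keeping dim probes in gave 877 and 1641, a 1.5-fold limit gave 1805 and 2086, and a 3-fold limit gave 103 and 370. The upward share was 36.4%, against 47.1% after quantile normalization, 47.1% in the authors' values and 20.8% without scaling, where the median of all genes was -0.25. In the membrane list, 0 genes passed upward and 0 downward after normexp and at 3-fold, and 1 passed upward with both arrays required above background. Downward calls without scaling, with no filter and at 1.5-fold were 1, 1 and 1 among regulators. They were 2, 3 and 5 among globins, and 1, 1 and 1 among maturation genes. Over all genes these settings gave 1154 of 15827, 1641 of 20642 and 2086 of 15827 downward. With no filter the 3 lists held 14, 10 and 18 genes, against 11, 8 and 16 measured without scaling. Of the heme genes 1 passed downward with no filter and 1 upward at 1.5-fold, where 3 maturation genes passed upward.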

Other observations

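Some probes listed under markers of other cell types were also among the brightest. Siglech, a receptor of plasmacytoid dendritic cells, read 79647 in WT and 113603 on the KO-labelled array at 1 probe, and 70.7 and 64.4 at the other. Elane, the elastase of neutrophil precursors, read 45722 and 39299 at the 1 probe matched to it. Of 10 neutrophil genes 9 had a probe and 7 were measured, among them Camp (101 and 87.4) and S100a8 (86.2 and 32.7). Mpo and Ngp were not well above background on either array. These genes were chosen after their values were seen.

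Brightness also went with the series a probe's name belongs to. Of 24974 probes whose names begin with A_55, 3.66% had a WT signal of at least 5000, against 1.36% of 7039 beginning with A_51, 1.25% of 5136 beginning with A_52 and 2.70% of 2001 beginning with A_66. Hemgn and the bright probe of Ermap belong to the first series, as does the Ermap probe that was not well above background on either array, and the probes of Klf1, Slc4a1, Rhag, Rhd and Epb42 to the A_51 and A_52 series. The part of the probe design in the levels of the erythroid genes was not tested.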
